A study of Homo sapiens with 27 samples.

Results

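The 9 genes described here encode nuclear receptors for steroid hormones, vitamin D, retinoids and fatty acids: NR3C1, NR3C2, VDR, RARA, RARB, RARG, RXRA, PPARA and PPARG. They were taken by gene symbol from the table of RNA-seq counts, which held 60619 genes in 27 libraries, by a rule that names the genes and sets no threshold on their values. All 9 passed the filter on low counts in every fit.

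The libraries came from ER-positive invasive lobular carcinoma (ILC) cell lines, MDA-MB-134VI (MM134) and SUM44, and from variants of each that had been selected by long-term estrogen deprivation (LTED). MM134 contributed 5 groups, the parental line and 4 LTED variants named A, B, D and E. SUM44 contributed 4 groups: SUM44PE, the subline SUM44F that was obtained from it by a change of medium and served as the parental line, and the variants LTED-A and LTED-B. Each group held 3 libraries of total RNA. The LTED variants were grown in IMEM with charcoal-stripped serum, and parental cultures were kept without hormone for 3 days before harvest, so that every group was deprived of steroids when RNA was taken. The variants of a line were derived independently, but the replicates were wells of a single culture, so p-values measure only the spread between wells. Each variant is also a single selected population.

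Nuclear receptors are transcription factors that are switched by small fat-soluble ligands. The corticosteroid receptors NR3C1 and NR3C2 wait in complexes with heat shock proteins and bind DNA as homodimers after they bind hormone. VDR, the retinoic acid receptors and the PPARs bind DNA as heterodimers with a retinoid X receptor such as RXRA. Charcoal removes many of their ligands from serum together with estrogen, and RARA is a known estrogen-induced gene in ER-positive breast cancer cells.

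Counts summed to between 28583554 and 134882175 per library, with a median of 44018412. In SUM44 LTED-A, the counts of replicates 2 and 3 agreed within sampling noise, with a chi-square per degree of freedom of 0.312 against 2.35 to 58.3 in the other 26 replicate pairs, and were counted as 1 sample, which leaves n = 2 in that group. The summed level of 6 luminal epithelial markers lay between 3970 and 7771 CPM (library-scaled counts) in every library. The immune, endothelial and adipocyte lists, of 5, 4 and 4 genes, summed to at most 10.5, 44.9 and 8.69 CPM, but differed between groups. Endothelial markers summed to 25.9 to 44.9 CPM in SUM44F, 10.9 to 11.1 CPM in SUM44PE and 2.80 to 4.52 CPM in the SUM44 variants. Over all libraries PECAM1 reached 27.3 CPM and VWF 12.4 CPM, but KDR only 4.32 CPM and CDH5 0.825 CPM. Immune markers summed to 9.49 to 10.5 CPM in MM134 LTED-A, where LYZ reached 10.3 CPM and CD3E was at 0, and to 0.429 to 0.875 CPM in MM134 parental cells. Their part in the receptor values was not tested. Fibroblast markers set SUM44F replicate 1 apart. All 5 of them were highest in that library, where they summed to 350.4 CPM against 9.28 and 8.07 in the other SUM44F libraries and 4.96 to 35.5 elsewhere, with COL3A1 at 134.6 CPM and COL1A1 at 85.9 CPM. The calls that change without this library are given beside each result, and its part in them was not tested further.

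Levels below are normalized CPM (trimmed mean of M values, TMM, over all libraries), given as single samples or as mean ± SD over 3 wells, except in SUM44 LTED-A, where n = 2 and the second value is the mean of the merged libraries. Changes are log2 fold changes ± SE from edgeR's quasi-likelihood test, with Benjamini-Hochberg adjusted p over all genes tested. A gene was called changed when the fold exceeded 1.5 and the adjusted p was under 0.001.

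In the MM134 variants most called receptors fell, and in the SUM44 variants every called receptor rose. PPARA fell in all 4 MM134 variants. NR3C1, RARA and RARG were lower than in parental cells in all 4 as well, although most of those differences did not reach the fold of 1.5. In SUM44, RARA rose in both variants, and NR3C2 and RARG rose in LTED-B. Over the 36 tests in MM134, 3 calls were rises and 8 were falls. Of the 18 tests in SUM44, 4 were called, all of them rises. PPARA alone gave 4 of the 8 falls in MM134, and RARA gave 2 of the 4 rises in SUM44. Of all genes tested, 20.3%, 15.9%, 17.6% and 19.0% were called in MM134 LTED-A, -B, -D and -E and 13.7% and 17.3% in SUM44 LTED-A and -B. In the same order of MM134 variants, 2741, 2114, 2510 and 2271 genes rose and 2558, 2021, 2071 and 2676 fell. In SUM44 LTED-A and -B, 1715 and 2333 rose and 1954 and 2299 fell. Of the 9 receptors, 5 were called in MM134 LTED-A, 1 in LTED-B, 2 in LTED-D and 3 in LTED-E, and 1 and 3 in the SUM44 variants. Variants of a line were compared with the same parental libraries, so their calls are not independent of each other.

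**Figure D1:**
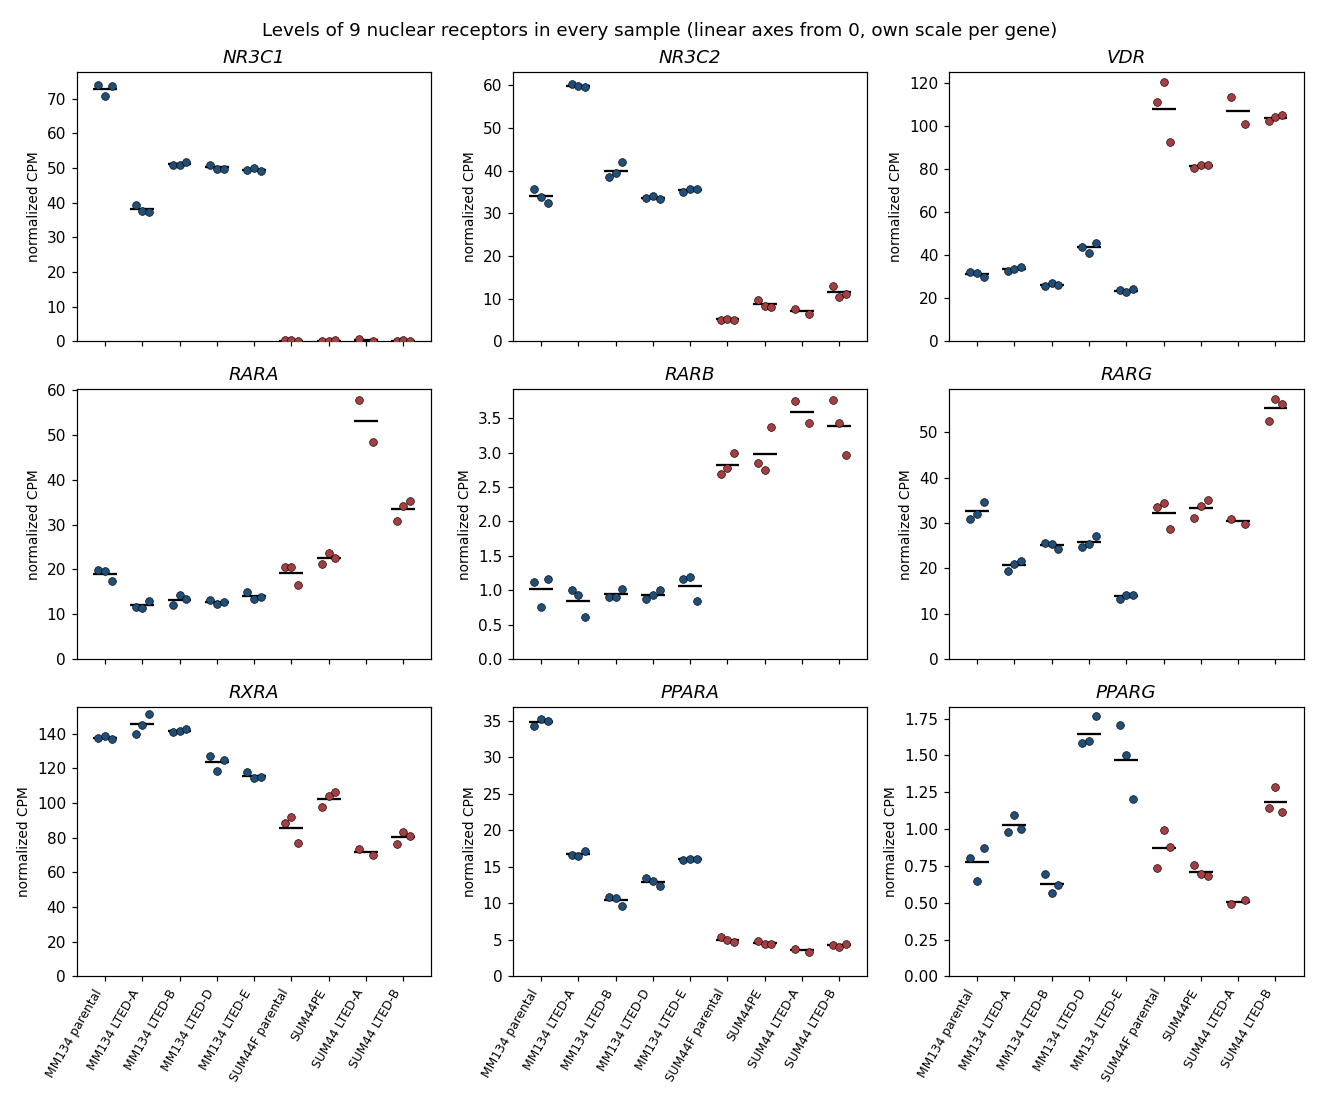
Normalized CPM of each receptor in every sample, on linear axes that start at 0 with a scale of their own per gene. Points are samples, blue for MM134 and red for SUM44, and short lines are group means. NR3C1 is at 37.3 to 74.1 CPM in MM134 and under 1 CPM in SUM44, PPARA is highest in MM134 parental cells, and RARA is highest in SUM44 LTED-A.

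**Figure D2:**
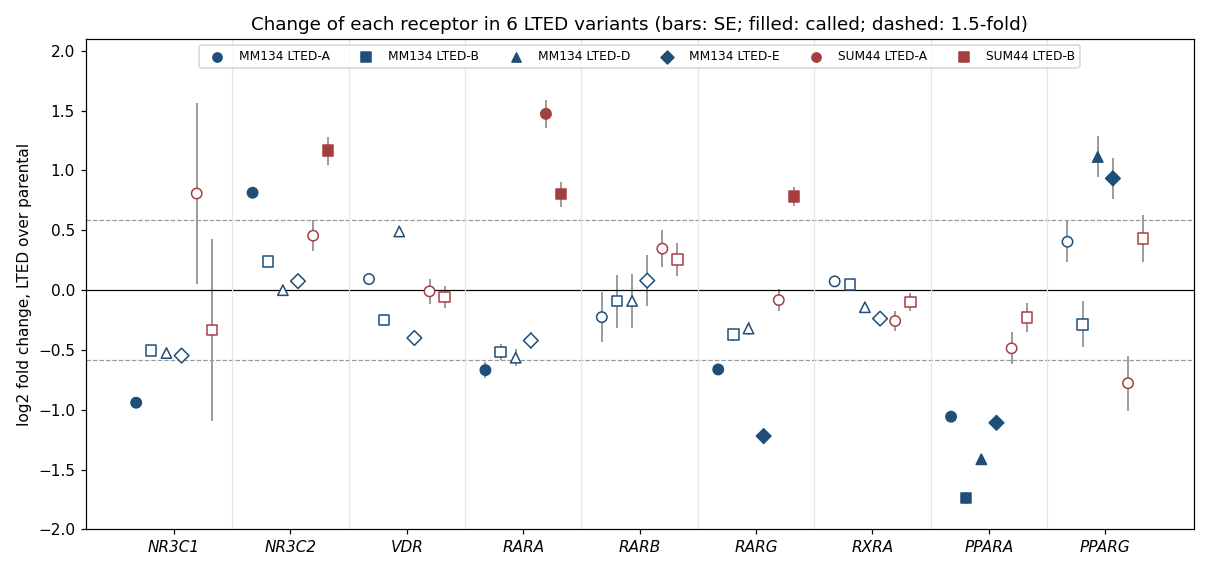
Log2 fold change (vertical axis, bars are SE) of each receptor in each LTED variant against its parental line, with filled points for called changes and dashed lines at a fold of 1.5. The 4 PPARA points of MM134 lie between -1.74 and -1.06, while the 2 RARA points of SUM44 lie at 0.80 and 1.47.

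NR3C1 (ENSG00000113580, hg38 chr5:143277931-143435512, minus strand) encodes the glucocorticoid receptor, which binds cortisol. It was abundant in MM134 and almost absent from SUM44. The MM134 parental wells held 74.1, 70.9 and 73.6 CPM. LTED-A held 39.3, 37.6 and 37.3 CPM, the lowest of the line. The other variants lay close together, at 50.9, 50.9 and 51.7 CPM in LTED-B, 51.0, 49.7 and 49.8 CPM in LTED-D and 49.4, 49.97 and 49.2 CPM in LTED-E. No variant well overlapped the parental wells. The fall was called in LTED-A, at -0.94 ± 0.03 (adjusted p = 6.23e-15). In LTED-B, -D and -E the log2 differences were -0.51, -0.53 and -0.55, each with SE 0.03 and adjusted p at most 8.66e-11, and thus below the fold of 1.5. In SUM44 each sample rested on 2 to 24 counts. SUM44F held 0.217, 0.313 and 0.0780 CPM, SUM44PE 0.0814, 0.127 and 0.353 CPM, LTED-A 0.593 and 0.149 CPM and LTED-B 0.0602, 0.297 and 0.109 CPM. All 4 of these groups overlapped, and a change of NR3C1 in SUM44 was not detectable at this depth, with 0.81 ± 0.76 in LTED-A (adjusted p = 0.458) and -0.34 ± 0.76 in LTED-B (adjusted p = 0.744). SUM44F replicate 1, the library with the fibroblast transcripts, held the middle one of the 3 SUM44F values.

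NR3C2 (ENSG00000151623, chr4:148078762-148444698, minus strand), the mineralocorticoid receptor, binds aldosterone and cortisol. It rose in MM134 LTED-A and in SUM44 LTED-B. MM134 parental wells held 35.7, 33.8 and 32.5 CPM and LTED-A wells 60.4, 59.9 and 59.7 CPM, a rise of 0.81 ± 0.04 (adjusted p = 5.30e-13). LTED-B lay in between, at 38.6, 39.4 and 41.9 CPM, with a difference of 0.24 ± 0.04 (adjusted p = 2.32e-05) that fell short of the fold. LTED-D at 33.7 ± 0.428 CPM and LTED-E at 35.5 ± 0.404 CPM overlapped the parental range, with adjusted p of 0.995 and 0.102. Thus LTED-A held the lowest NR3C1 and the highest NR3C2 of the MM134 groups. In SUM44F the level was 5.10, 5.25 and 4.955 CPM. LTED-B held 12.95, 10.5 and 10.99 CPM, a rise of 1.17 ± 0.12 (adjusted p = 1.92e-05), and LTED-A held 7.59 and 6.43 CPM, with 0.45 ± 0.13 (adjusted p = 0.0188), which was not called. Both LTED groups lay above SUM44F without overlap. Without SUM44F replicate 1 the difference in LTED-B was 1.16 (adjusted p = 9.23e-05).

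Of 11 corticosteroid target genes, all tested, MM134 LTED-A had 3 up and 4 down, LTED-B 2 up and 5 down, LTED-D 2 up and 4 down and LTED-E 2 up and 6 down. Their median log2 difference was -0.63 to -0.41, beside -0.03 to 0.02 for all genes tested. SGK1, a kinase that raises sodium channel activity, fell from 4.71 ± 0.661 CPM to 0.786 to 1.15 CPM, by 2.02 to 2.54 on the log2 scale. KLF9, a transcription factor, fell by 1.83 to 3.60 and MT1X, a metallothionein, by 1.25 to 2.66. SCNN1A, a subunit of the epithelial sodium channel, rose in all 4 variants, from 3.67 ± 0.221 CPM to between 9.70 and 40.2 CPM, a change of 1.41 to 3.45. FKBP5, the immunophilin of the receptor complex and a textbook glucocorticoid target, also rose in all 4, by 0.97 to 2.01, from 16.6 ± 1.26 CPM to between 32.7 and 66.2 CPM. CDKN1C, a cell cycle inhibitor, fell in all 4, by 0.60 to 2.25. FKBP5 and CDKN1C were picked after their values had been seen. In SUM44, where NR3C1 was almost absent, 1 of the 11 was up and 2 were down in LTED-A, and 0 were up and 2 down in LTED-B. KLF9 fell in both, by 3.14 and 4.76, from 3.41 ± 0.245 CPM in SUM44F. SCNN1A fell in both, by 2.11 and 0.64, and the LTED-B call was lost without SUM44F replicate 1 (-0.58, adjusted p = 0.00315). Of 8 enzymes and chaperones of the corticosteroid receptors, 7 were tested, and each MM134 variant had 0 rises and 0 to 2 falls. SUM44 LTED-A had no call among them, and LTED-B had 4 rises and 1 fall. The fall was that of HSD11B2, which inactivates cortisol, and was not called without SUM44F replicate 1 (-1.02, adjusted p = 0.00123). HSD11B2 was picked after its values had been seen.

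VDR (ENSG00000111424, chr12:47841537-47943048, minus strand) is the receptor for calcitriol. It was not called in any LTED variant of either line, yet it separated the MM134 variants from each other. MM134 parental wells held 32.1, 31.9 and 30.03 CPM. LTED-D was highest with 43.9, 41.2 and 45.9 CPM, and LTED-E was lowest with 23.9, 22.7 and 24.2 CPM. Neither overlapped the parental wells, and the differences were 0.49 ± 0.04 (adjusted p = 1.21e-08) and -0.40 ± 0.04 (adjusted p = 2.57e-07), both below the fold of 1.5. LTED-B at 26.3 ± 0.815 CPM was lower by less (-0.25 ± 0.04, adjusted p = 7.82e-05), and LTED-A was at 33.6 ± 0.874 CPM (adjusted p = 0.0728). In SUM44 the level was 111.4, 120.5 and 92.7 CPM in SUM44F, 113.8 and 100.9 CPM in LTED-A and 102.3, 104.5 and 105.3 CPM in LTED-B. These groups overlapped, and the differences of -0.01 ± 0.11 and -0.06 ± 0.09 had adjusted p of 0.955 and 0.651. A long non-coding RNA on the opposite strand of VDR averaged 5.60 CPM, and the strand setting of the counting is not given in the sources used here, so that some reads could belong to either gene.

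Of 9 genes of vitamin D uptake, activation and response, 6 were tested for LTED in each line. Each MM134 variant had 1 rise and 0 to 2 falls, with SUM44 LTED-A at 1 up and 1 down and LTED-B at 2 up and 1 down. A rise of CYP27B1, which makes calcitriol, was among the 2 in LTED-B (1.49, adjusted p = 8.11e-04) and was not called without SUM44F replicate 1 (1.54, adjusted p = 0.00218), which leaves 1. CYP27B1 was picked after its values had been seen. TRPV6, an epithelial calcium channel induced by calcitriol, rose from 0.748 ± 0.146 CPM to between 1.97 and 4.83 CPM in the 4 MM134 variants (1.41 to 2.71 on the log2 scale). In SUM44 it fell by 2.25 in LTED-A, to 4.54 ± 0.303 CPM, and by 1.43 in LTED-B, to 8.05 ± 0.436 CPM, from 21.7 ± 2.77 CPM in SUM44F. LRP2, the endocytic receptor megalin that takes up vitamin D with its carrier, did the reverse. It fell from 688.7 ± 40.5 CPM in MM134 parental cells to 143.4 to 303.7 CPM in LTED-A, -D and -E, and stood at 466.0 CPM in LTED-B (-0.56, under the fold). In SUM44 it rose from 35.2 ± 2.11 CPM to 210.4 ± 17.9 CPM and 290.7 ± 17.6 CPM. SUM44PE, however, already held 197.0 ± 5.34 CPM.

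The retinoic acid receptors RARA, RARB and RARG bind all-trans retinoic acid, and with RXR they recognize pairs of a short motif of 6 letters, AGGTCA or close relatives. Windows of 250 bases upstream of a start site were read from RefSeq (GRCh38.p14) for 8 of the 9 receptors, 29 windows in all. AGGTCA on either strand was in 5 of the 29, and in 12.1% of 35116 windows of all genes. Some windows of a gene overlap, so the 29 are not separate sequences. The PPARG windows that begin at chr3:12288810 and chr3:12288820 share most of their bases, and each counts among the 5. The other 6-letter motif searched, AGAACA of the steroid receptors, was in 2 of the 29 and in 12.4% of all. Stretches of RARA and RARB are shown because RARA moved in opposite directions in the lines and because RARB holds a known response element. In RARB (chr3:25428205-25428234, plus strand) the capitals mark GTTCAC in direct repeat with 5 bases between the copies, GTTCACNNNNNGTTCAC, which on either strand was in 4 of 35116 windows (0.0114%). The first capital lies 52 bases before the start site, and this repeat is the well-known retinoic acid response element of RARB. The letters searched for were those of this element, so the match in RARB was fixed in advance. Of the 29 receptor windows, 1 held it, and 204 of the 250 bases of that window lie in annotated exons. In RARA (chr17:40308930-40309179, plus strand) the capitals mark a copy of AGGTCA. This window is shown because it holds a match, and the RARA windows at chr17:40317995-40318244 and chr17:40341916-40342165 held none.
RARB: ggtaggGTTCACcgaaaGTTCACtcgcata
RARA: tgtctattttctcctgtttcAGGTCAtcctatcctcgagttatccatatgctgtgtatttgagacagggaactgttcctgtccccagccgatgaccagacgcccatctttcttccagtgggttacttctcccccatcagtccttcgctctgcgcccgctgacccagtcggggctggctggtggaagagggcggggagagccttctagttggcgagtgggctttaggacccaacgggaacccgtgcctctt
Such matches describe the letters of the window only.

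RARA (ENSG00000131759, chr17:40309180-40357643, plus strand) moved in opposite directions in the lines. The parental levels were alike, at 19.9, 19.6 and 17.4 CPM in MM134 and 20.55, 20.5 and 16.55 CPM in SUM44F. MM134 LTED-A held 11.6, 11.4 and 12.9 CPM, a fall of 0.67 ± 0.07 on the log2 scale (adjusted p = 8.28e-08). LTED-B held 12, 14.3 and 13.3 CPM, LTED-D 13.2, 12.2 and 12.7 CPM and LTED-E 14.9, 13.4 and 13.9 CPM, again without overlap with the parental wells. Their differences of -0.52, -0.56 and -0.42 had adjusted p between 1.45e-06 and 3.39e-05 and did not reach the fold. SUM44 LTED-A held 57.9 and 48.6 CPM, a rise of 1.47 ± 0.12 (adjusted p = 3.80e-06). SUM44 LTED-B held 30.9, 34.1 and 35.2 CPM, a rise of 0.80 ± 0.11 (adjusted p = 1.31e-04). All SUM44 LTED samples lay above every SUM44F and SUM44PE sample. Without SUM44F replicate 1 the rises were 1.52 and 0.85. The LTED-B call was lost without LTED-B replicate 3 (0.76, adjusted p = 0.0011). RARA-AS1, an RNA from the opposite strand, averaged 1.35 CPM.

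RARG (ENSG00000172819, chr12:53210567-53232980, minus strand), a receptor prominent in epithelia, was lower in the MM134 variants and, in SUM44, rose in LTED-B only. MM134 parental wells held 31.0, 32.1 and 34.6 CPM. It fell in LTED-A, with wells at 19.5, 21.0 and 21.5 CPM (-0.66 ± 0.05, adjusted p = 1.30e-09), and most in LTED-E, with wells at 13.3, 14.2 and 14.1 CPM (-1.22 ± 0.05, adjusted p = 4.25e-13). LTED-B at 25.1 ± 0.646 CPM and LTED-D at 25.8 ± 1.28 CPM were lower by -0.37 and -0.32, under the fold. In SUM44 the rise was seen in LTED-B, at 52.6, 57.3 and 56.3 CPM against 33.5, 34.5 and 28.6 CPM in SUM44F (0.78 ± 0.08, adjusted p = 2.29e-05). LTED-A wells at 31.0 and 29.7 CPM lay within the SUM44F range (-0.08 ± 0.09, adjusted p = 0.529).

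RARB (ENSG00000077092, chr3:24687887-25597932, plus strand), itself a target of retinoic acid, was low in all groups and was not called in any variant. Its level was 0.614 to 1.19 CPM over the 15 MM134 wells, with parental wells at 1.12, 0.756 and 1.17 CPM. The MM134 differences ran from -0.23 to 0.08 with adjusted p of at least 0.404. In SUM44 it lay between 2.69 and 3.76 CPM over all samples. SUM44F held 2.69, 2.77 and 2.996 CPM and LTED-A 3.76 and 3.44 CPM (0.35 ± 0.15, adjusted p = 0.105), and LTED-B at 3.39 ± 0.399 CPM overlapped SUM44F (0.26 ± 0.14, adjusted p = 0.160).

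Genes of retinoid supply fell and rose in the same variants. Of 13 genes for retinoid binding, synthesis and breakdown, 10 were tested in MM134, with 2 up in each variant and 1, 3, 2 and 3 down in LTED-A, -B, -D and -E. RDH10, which oxidizes retinol to retinal, rose from 11.2 ± 0.520 CPM to between 27.6 and 41.5 CPM (1.30 to 1.89). ALDH1A3, which makes retinoic acid from retinal, rose by 2.66 to 5.85, but from 0.0311 CPM to 0.206 to 1.83 CPM only. CRABP2, which carries retinoic acid to the nucleus, fell in LTED-B, -D and -E by 0.77 to 1.48 from 308.7 ± 6.82 CPM, and stood at 325.7 ± 16.8 CPM in LTED-A. In SUM44, 11 were tested, with 1 fall in LTED-A and no call in LTED-B. That fall was of RDH10 (-0.61, adjusted p = 7.08e-04) and was not called without SUM44F replicate 1 (adjusted p = 0.00280). DHRS3, which turns retinal back to retinol, became a fall in LTED-A without that library (-0.94, adjusted p = 5.13e-04) and was picked after its values had been seen.

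Of 8 retinoic acid target genes, 6 were tested, and none was called as a rise in any variant of either line. MM134 LTED-A, -B, -D and -E had 2, 4, 2 and 4 falls, and each SUM44 variant had 1. The MM134 medians were -0.93 to -0.51, beside -0.03 to 0.02 for all genes tested. Of all 26061 genes, 2114 to 2741 were called rises and 2021 to 2676 falls in the MM134 variants. In SUM44 LTED-A and -B, 1715 and 2333 of 26834 were called rises and 1954 and 2299 falls. Without SUM44F replicate 1, DHRS3, which is on both retinoid lists, became a further fall in SUM44 LTED-A (-0.94, adjusted p = 5.13e-04). CYP26B1, also on both lists, was among the falls in MM134 LTED-B (-0.63) and LTED-E (-0.728). It was picked after its values had been seen. PLAAT4, a phospholipase also named retinoic acid receptor responder 3, fell in all 6 variants. It went from 15.8 ± 0.389 CPM in MM134 parental cells to between 2.32 and 8.44 CPM, by 0.89 to 2.75. In SUM44 it went from 17.6 ± 3.04 CPM to 6.44 ± 0.154 CPM and 8.22 ± 0.515 CPM, by 1.45 and 1.10. NRIP1, a corepressor of nuclear receptors that estrogen also induces, fell in the 4 MM134 variants by 0.82 to 1.24 from 320.0 ± 16.5 CPM. In SUM44 its differences were 0.41 and 0.27, neither called.

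RXRA (ENSG00000186350, chr9:134317098-134440585, plus strand), the shared heterodimer partner, was not called in any LTED comparison. MM134 parental wells held 137.5, 138.5 and 136.8 CPM, and all MM134 wells lay between 114.6 and 151.3 CPM. LTED-D at 123.5 ± 4.33 CPM and LTED-E at 115.8 ± 1.97 CPM did not overlap the parental wells, with small differences of -0.14 ± 0.03 (adjusted p = 5.42e-04) and -0.24 ± 0.03 (adjusted p = 1.79e-06). LTED-A and LTED-B lay above the parental wells by 0.07 and 0.05 (adjusted p = 0.0467 and 0.220). In SUM44F it was at 88.4, 91.9 and 77.2 CPM, beside 73.4 and 70.0 CPM in LTED-A (-0.26 ± 0.09, adjusted p = 0.0379) and 80.3 ± 3.59 CPM in LTED-B (-0.10 ± 0.08, adjusted p = 0.324).

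Among 12 other RXR genes and RXR partners, 9 were tested in MM134 and 10 in SUM44. MM134 LTED-A, -B, -D and -E had 2, 2, 3 and 2 rises and 2, 3, 1 and 2 falls, and SUM44 LTED-A and -B had 3 and 2 rises and 1 and 0 falls. RXRB, the broadly expressed relative of RXRA, was not called in any variant and lay between 27.0 and 36.7 CPM in all group means. RXRG was at most 0.255 CPM in the group means. THRA, a thyroid hormone receptor, fell in the 4 MM134 variants from 56.2 ± 2.22 CPM by 0.70 to 1.44. THRB, its relative, was not called in MM134, but in SUM44 it rose by 4.44 in LTED-A and by 4.87 in LTED-B, from 3.02 ± 0.0783 CPM in SUM44F to 65.5 ± 1.15 and 88.4 ± 0.878 CPM. SUM44PE held 31.1 ± 1.72 CPM of THRB. PPARD, the third PPAR, fell in MM134 LTED-A, -B and -E by 0.62 to 0.72 from 35.4 ± 1.52 CPM, and was -0.45 in LTED-D, under the fold. In SUM44 it rose in LTED-A (1.19, adjusted p = 1.04e-04). NR1H2, a liver X receptor, was not called in any LTED variant against MM134 parental or SUM44F cells, and NR1H3, the other one, rose in MM134 LTED-D (0.65) and SUM44 LTED-B (0.80). NR1I3 rose in all 4 MM134 variants by 0.76 to 1.011, from 1.71 ± 0.323 CPM. NR4A2, an orphan receptor that can pair with RXR, rose in the same 4 by 0.65 to 2.69 and fell in SUM44 LTED-A (-1.10, adjusted p = 1.24e-04). NR4A1 fell in MM134 LTED-B (-0.64) and rose in SUM44 LTED-A (0.98), the latter not called without SUM44F replicate 1 (adjusted p = 0.0015). NR1H4 and NR1I2, the bile acid and xenobiotic receptors, did not pass the filter in either LTED fit.

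PPARA (ENSG00000186951, chr22:46150521-46243755, plus strand) is the fatty acid receptor that drives fat oxidation in liver. Its upstream stretch (RefSeq, GRCh38.p14, chr22:46150276-46150520, plus strand) is shown because it was the receptor called in the most variants. Capitals mark 6 GC boxes, GGGCGG on either strand, of which 2 overlap. GC boxes were in 18 of the 29 receptor windows and in 42.6% of all windows, and 84.4% of the PPARA window is G or C, beside a median of 58% over all windows. No AGGTCA or AGAACA was in it, nor in the other PPARA window (chr22:46150538-46150787), which held 9 GC boxes.
PPARA: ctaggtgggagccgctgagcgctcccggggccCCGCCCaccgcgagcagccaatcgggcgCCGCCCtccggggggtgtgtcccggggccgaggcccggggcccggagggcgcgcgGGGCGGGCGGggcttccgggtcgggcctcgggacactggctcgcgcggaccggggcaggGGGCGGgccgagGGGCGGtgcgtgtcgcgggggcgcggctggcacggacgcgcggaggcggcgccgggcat

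In MM134 parental wells PPARA stood at 34.2, 35.3 and 34.9 CPM. LTED-A held 16.7, 16.5 and 17.2 CPM (-1.06 ± 0.04, adjusted p = 3.30e-13). LTED-B was lowest at 10.9, 10.7 and 9.58 CPM (-1.74 ± 0.05, adjusted p = 1.14e-15). LTED-D held 13.5, 13.05 and 12.4 CPM (-1.41 ± 0.05, adjusted p = 1.77e-14), and LTED-E 15.9, 16.1 and 16.1 CPM (-1.11 ± 0.05, adjusted p = 2.54e-13). No LTED well exceeded 17.2 CPM, and none overlapped the parental wells. In SUM44 the gene was low throughout, at 5.36, 4.98 and 4.69 CPM in SUM44F, 3.78 and 3.38 CPM in LTED-A and 4.34, 4.05 and 4.41 CPM in LTED-B. The differences of -0.49 ± 0.13 (adjusted p = 0.0159) and -0.23 ± 0.12 (adjusted p = 0.142) were not called, although no LTED sample reached the SUM44F range. A long non-coding RNA on the same strand overlaps PPARA and averaged 1.04 CPM over all samples, and some reads could belong to either gene.

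The list of PPARA targets held both rises and falls in MM134. Of its 13 genes, 11 were tested in MM134, and each variant had 3 up and 1, 2, 1 and 1 down in LTED-A, -B, -D and -E. The counts are small. Of all 26061 genes tested, 2114 to 2741 were called rises and 2021 to 2676 falls. Medians of the list were 0.17 to 0.32, beside -0.03 to 0.02 for all genes tested. PDK4, which restrains pyruvate oxidation, rose in LTED-A, -B and -D by 0.71 to 1.03 from 14.99 ± 0.864 CPM, and was 0.29 in LTED-E, under the fold. ACSL1, an acyl-CoA synthetase, fell in all 4, by 1.20 to 2.18 from 22.9 ± 1.53 CPM. In SUM44, 10 were tested, with 0 up and 2 down in LTED-A and 2 up and 1 down in LTED-B. Without SUM44F replicate 1, a fall of EHHADH in LTED-B, an enzyme of peroxisomal fat oxidation picked after its values had been seen, was no longer called (-0.69, adjusted p = 0.00115), and LTED-A had 1 fall in place of 2.

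PPARG (ENSG00000132170, chr3:12287368-12434356, plus strand), the master regulator of fat cell differentiation, was low in all groups, from 0.494 to 1.77 CPM. It rose in MM134 LTED-D, with wells at 1.58, 1.60 and 1.77 CPM against 0.801, 0.648 and 0.875 CPM in parental cells (1.11 ± 0.17, adjusted p = 2.06e-05), and in LTED-E, with wells at 1.71, 1.504 and 1.21 CPM (0.93 ± 0.17, adjusted p = 1.27e-04). The LTED-E call was lost when only the parental and LTED-E wells were fitted (adjusted p = 0.0019) and without MM134 parental replicate 2 (adjusted p = 0.0015). LTED-A wells at 0.983, 1.10 and 1.00 CPM lay above the parental wells by 0.40 ± 0.17 (adjusted p = 0.0579), and LTED-B overlapped them (-0.29 ± 0.19, adjusted p = 0.324). In SUM44F it was at 0.738, 0.996 and 0.880 CPM. LTED-A lay below, at 0.494 and 0.517 CPM (-0.78 ± 0.23, adjusted p = 0.0214), and LTED-B above, at 1.14, 1.29 and 1.11 CPM (0.43 ± 0.19, adjusted p = 0.0953), and neither was called. Adipocyte markers summed to 1.51 to 3.24 CPM in the MM134 wells.

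Of 10 PPARG targets, 6 were tested in MM134, with 1 up in each variant and 1, 2, 2 and 0 down in LTED-A, -B, -D and -E. The rises in LTED-D and -E were of PLIN2 (0.768 and 1.435), as was 1 fall in LTED-B (-1.241). PLIN2 is also on the list of PPARA targets, is counted on both and was picked after its values had been seen. PLIN4, a lipid droplet protein, fell in LTED-A, -B and -D by 0.85 to 1.33 from 2.53 ± 0.207 CPM. Of 8 tested in SUM44, LTED-A had 1 fall and LTED-B 1 rise and 1 fall, the rise again being that of PLIN2 (0.618). The fall in LTED-B was of PLIN4 (-0.99, adjusted p = 8.16e-04), and it was not called without SUM44F replicate 1 (adjusted p = 0.00219).

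The steroid receptors for progesterone and estrogen are given beside these values. PGR, the progesterone receptor and an estrogen target, fell in all 4 MM134 variants by 2.17 to 4.33 from 2.68 ± 0.377 CPM. In SUM44, PGR was at 1.33 to 9.55 CPM in SUM44F and its falls were called only without SUM44F replicate 1 (-3.29 and -3.64, adjusted p = 9.91e-04 and 2.45e-04). ESR1, the estrogen receptor, fell in MM134 LTED-A to 150.5 ± 2.84 CPM from 362.6 ± 11.03 CPM (-1.27). The other MM134 variants were under the fold, at 535.6 ± 18.3 CPM in LTED-B (0.57, adjusted p = 5.76e-12), 466.4 ± 6.57 CPM in LTED-D (0.38, adjusted p = 1.98e-09) and 265.0 ± 2.60 CPM in LTED-E (-0.44, adjusted p = 1.87e-10). ESR1 rose in both SUM44 variants, from 570.5 ± 31.6 CPM to 1399 ± 36.7 CPM and 1356 ± 30.8 CPM.

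**Figure D3:**
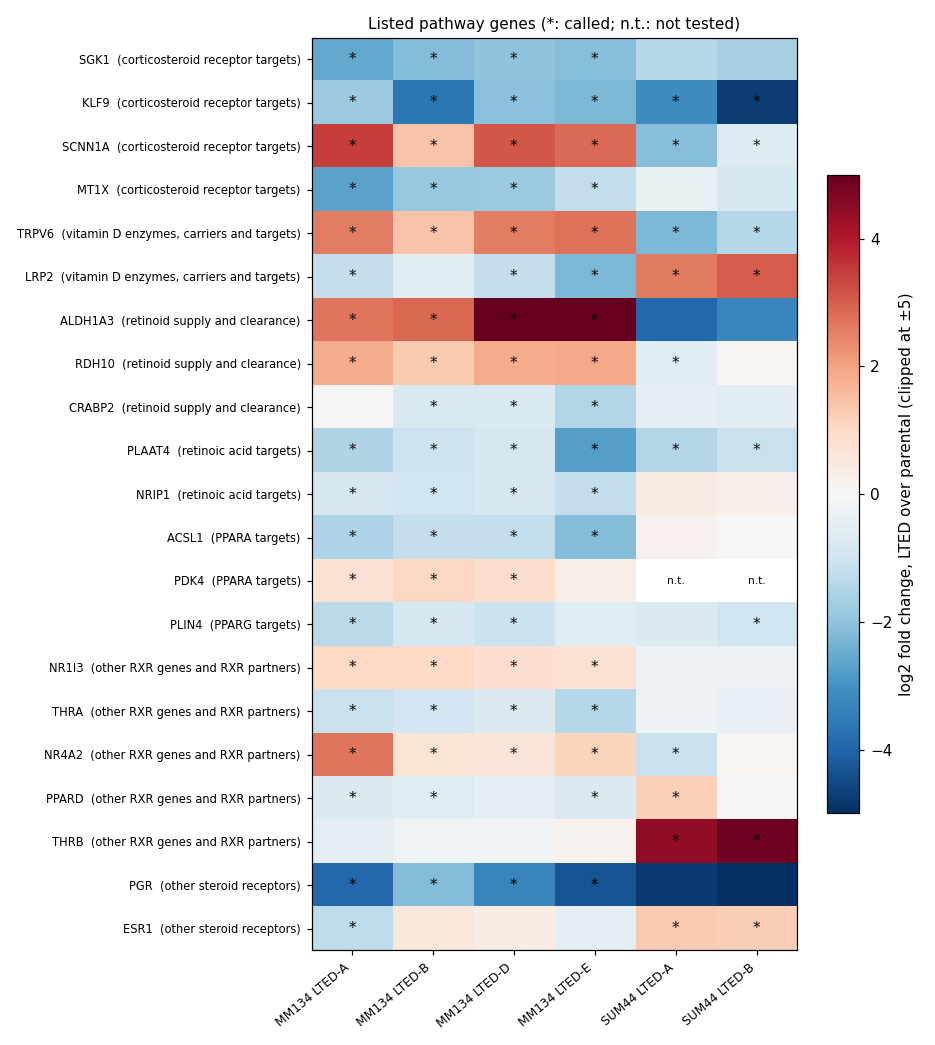
Heat map of the log2 fold change in each LTED variant (columns) against its parental line for the named pathway genes (rows), red for higher and blue for lower, with colors ending at 5 in either direction and asterisks for called changes. SCNN1A and RDH10 are red and SGK1, KLF9 and PLAAT4 blue in all 4 MM134 variants, and PDK4 was not tested in SUM44.

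MM134 variants were also tested against each other, since they were derived apart. In the 54 tests, 11 were called. PPARA differed between LTED-A and -B (0.68, adjusted p = 2.52e-09) and between LTED-B and -E (-0.63, adjusted p = 7.81e-09). NR3C2 was higher in LTED-A than in LTED-D (0.81, adjusted p = 1.54e-12) and in LTED-E (0.74, adjusted p = 6.12e-12). VDR was higher in LTED-D than in LTED-B by 0.74 and than in LTED-E by 0.89, the contrasts being -0.74 and 0.89 with adjusted p of 1.02e-10 and 4.42e-12. RARG was lower in LTED-E than in LTED-B (contrast 0.85, adjusted p = 2.39e-10) and LTED-D (0.90, adjusted p = 9.32e-11). PPARG was higher in LTED-D than in LTED-A (contrast -0.71, adjusted p = 8.35e-04) and LTED-B (-1.40, adjusted p = 2.42e-06), and higher in LTED-E than in LTED-B (-1.22, adjusted p = 9.64e-06). The first of these 3 PPARG calls was lost with DESeq2, without a filter on low counts and when any of the 6 libraries compared was left out (adjusted p = 0.00175 to 0.00687), as well as without MM134 parental replicate 1 or LTED-E replicate 2, and the PPARA call between LTED-B and -E was lost without LTED-B replicate 3 (-0.57). NR3C1, RARA, RARB and RXRA gave no call between variants. Of all genes, 7.06%, 9.88%, 7.84%, 7.40%, 9.78% and 11.6% were called in A against B, A against D, A against E, B against D, B against E and D against E. The receptors called were 1, 2, 1, 2, 3 and 2 of 9 in the same order.

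Between the SUM44 variants 1 receptor was called, beside 7.42% of all genes. RARG was lower in LTED-A than in LTED-B (-0.87 ± 0.09, adjusted p = 7.13e-05), a call lost without LTED-A replicate 1 (-0.87, adjusted p = 0.00142), where a single LTED-A sample is left and is assumed to vary like the other groups. RARA (0.67, adjusted p = 0.00163), NR3C2 (-0.71, adjusted p = 0.00267) and PPARG (-1.21, adjusted p = 0.00308) exceeded the fold but missed the adjusted p.

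SUM44PE and SUM44F, neither of them selected without estrogen, show how far the receptors differed between cultures of a common origin. NR3C2 was the only receptor called, with 9.68, 8.25 and 8.06 CPM in SUM44PE against 4.955 to 5.25 CPM in SUM44F (0.75 ± 0.11, adjusted p = 3.32e-04), beside 5.57% of all genes. This call was lost when any of the 6 libraries involved was left out (adjusted p = 0.0011 to 0.0020). VDR was at 80.5, 81.9 and 82.1 CPM in SUM44PE, below all SUM44F samples (-0.42 ± 0.08, adjusted p = 0.0027), but was not called. Against SUM44PE, RARA rose in LTED-A (1.28 ± 0.11, adjusted p = 9.16e-07) and in LTED-B (0.60 ± 0.10, adjusted p = 2.14e-04), and RARG rose in LTED-B (0.76 ± 0.08, adjusted p = 3.61e-06). The shares of all genes were 14.3% in LTED-A and 20.2% in LTED-B. NR3C2, which rose in LTED-B against SUM44F, was 0.43 ± 0.11 against SUM44PE (adjusted p = 0.00595) and was not called. The RARA call in LTED-B against SUM44PE lay just above the fold and was lost in 6 alternative settings besides the stricter fold, 4 of which leave out 1 library (0.52 to 0.60).

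Parental MM134 and SUM44F cells differed in 6 of the 9 receptors, beside 38.1% of all genes, and line and culture history cannot be told apart here. NR3C1 was 403.7-fold higher in MM134 (log2 8.66 ± 0.23, adjusted p = 1.52e-20), a ratio that rests on few counts in SUM44F. PPARA (2.80 ± 0.07), NR3C2 (2.74 ± 0.07) and RXRA (0.68 ± 0.05) were also higher in MM134, with adjusted p of at most 2.34e-11. VDR was higher in SUM44F (-1.78 ± 0.07, adjusted p = 2.84e-17) and so was RARB (-1.49 ± 0.18, adjusted p = 6.38e-08). RARA (-0.01 ± 0.09), RARG (0.02 ± 0.06) and PPARG (-0.18 ± 0.17) had adjusted p of 0.908, 0.822 and 0.397. The same 6 were called without SUM44F replicate 1.

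Whether the change under LTED differed between the lines was tested directly, by subtracting the mean log2 change of the SUM44 variants from the mean over the MM134 variants. The SE and p-value of this test rest on the spread between wells and leave out the spread between variants of a line. The difference between lines was called for 3 receptors, beside 21.0% of all genes. It was -1.69 ± 0.10 for RARA (adjusted p = 1.10e-12), -1.001 ± 0.08 for RARG (adjusted p = 6.30e-11) and -0.98 ± 0.08 for PPARA (adjusted p = 1.60e-10). NR3C2 at -0.53 ± 0.09 (adjusted p = 1.61e-05) was under the fold, and PPARG at 0.71 ± 0.20 (adjusted p = 0.00427) missed the adjusted p. VDR, RARB, RXRA and NR3C1 had adjusted p of at least 0.141. Without SUM44F replicate 1 the 3 called values were -1.74, -1.03 and -1.03.

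Over all 9 groups, ordered by mean level in a single fit of all libraries, neighbouring groups differed (adjusted p under 0.001, no minimum fold) in 19 of 72 steps of the receptors, or 26.4%, beside 8.91% of the steps of all genes. All genes were not matched to the receptors in level, and the part of level in these 2 shares was not tested. This fit shares its spread with SUM44 and is less sensitive within MM134 than the fit of that line alone. For NR3C1 the only step was from MM134 LTED-A, the lowest of that line, to the SUM44 groups, and for RARB it was between SUM44F, the lowest of SUM44, and MM134. NR3C2 and PPARA had 4 steps each. NR3C2 ran from MM134 LTED-A down to the other 4 MM134 groups, which did not differ from their neighbours, then through SUM44 LTED-B and a shared place of SUM44PE and LTED-A to SUM44F. PPARA ran from MM134 parental cells to LTED-A with LTED-E, then LTED-D, then LTED-B and finally the 4 SUM44 groups together. VDR had 3 steps, with SUM44F, LTED-A and LTED-B together at the top, then SUM44PE, then MM134 LTED-D, and the other 4 MM134 groups at the bottom. RARA also had 3, with SUM44 LTED-A first, LTED-B next, the 3 parental groups SUM44PE, SUM44F and MM134 together, and the 4 MM134 variants together at the bottom. RARG had 2, which set SUM44 LTED-B apart at the top and MM134 LTED-E at the bottom. RXRA had 1, between SUM44PE and SUM44F, which was lost under the alternative scaling described below. PPARG had none, and its 9 groups formed a chain from MM134 LTED-D at 1.65 ± 0.101 CPM to SUM44 LTED-A at 0.506 ± 0.0163 CPM in which no neighbours differed.

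**Figure D4:**
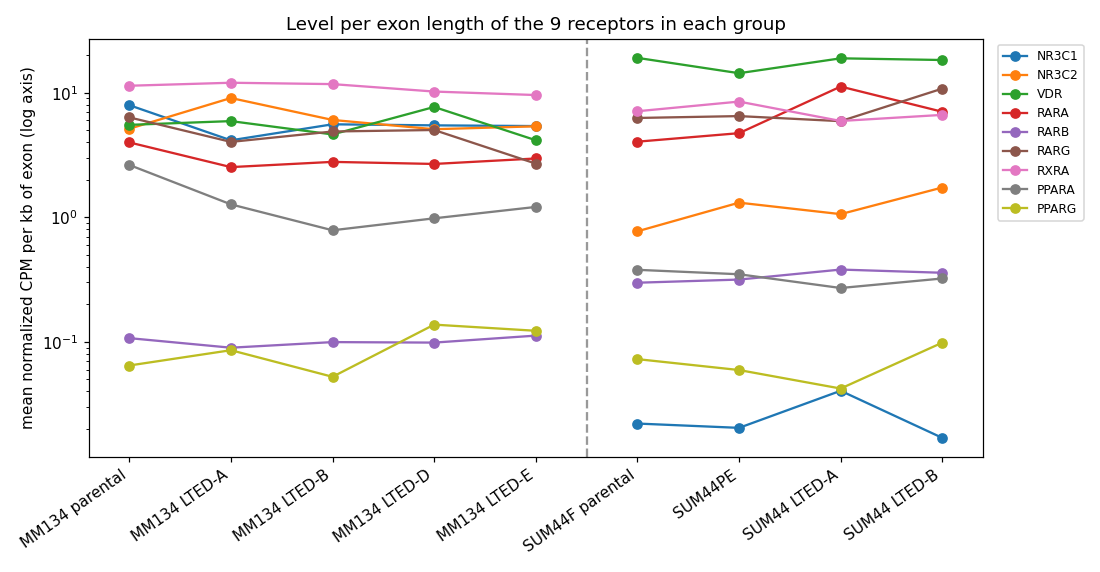
Mean normalized CPM per kilobase of exon for the 9 receptors (lines) in each group, on a log axis. RXRA is first in the 5 MM134 groups and VDR first in the 4 SUM44 groups, while NR3C1 is last in SUM44.

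Levels of different receptors were compared per kilobase of exon. RXRA ranked first in all 5 MM134 groups, at 9.59 to 12.04 CPM per kb, and VDR ranked first in all 4 SUM44 groups, at 14.4 to 19.1 CPM per kb. In MM134 parental cells NR3C1 came second at 7.96 CPM per kb, whereas it ranked last in every SUM44 group, at 0.0170 to 0.0405 CPM per kb. In MM134 LTED-A the second place went to NR3C2, at 9.08 CPM per kb against 4.15 for NR3C1. PPARA stood at 2.63 CPM per kb in MM134 parental cells and 0.787 in LTED-B, and RARA at 11.2 CPM per kb in SUM44 LTED-A. RARB and PPARG were the lowest pair in every MM134 group, at no more than 0.138 CPM per kb.

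As a description with no test, the protein-coding genes most like each receptor were sought by Pearson's r of mean log2 CPM over the 9 groups, among 11225 genes, and since groups of a line share an origin, a gene that only separates the lines will score high. They were PHF19 (0.997) and NFASC (0.996) for NR3C1, EIF3G (0.995) and PHPT1 (0.992) for NR3C2, and AVL9 (0.990) and NUDCD3 (0.986) for VDR. FCHSD2 (0.986) was among the first for RARA, H2BC6 (0.997) and PHGDH (0.997) for RARB, and APH1B (0.962) for RARG. For RXRA they were KANK3 (0.981) and ALG1L2 (0.978), for PPARA CPLX2 (0.987) and CHRNB2 (0.987), and for PPARG, the least matched, CCNE1 (0.918) and ANTXR2 (0.859).

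The chromosomal surroundings of the receptors were compared as the median change of 40 tested genes. These were the nearest by position, in equal number from each side, among genes above a minimum mean level. Around PPARA this median was -0.16 to -0.06 in the MM134 variants, where PPARA itself was at -1.74 to -1.06. In SUM44 LTED-A and -B it was 0.49 and 0.22, beside -0.49 and -0.23 for PPARA. Around RXRA it was 0.27 and 0.33 in SUM44 LTED-A and -B, beside -0.26 and -0.10 for the gene. Around RARA it was -0.19 to -0.06 in MM134 and 0.02 in both SUM44 variants, where RARA was at 1.47 and 0.80. Around NR3C1 it was -0.11 to -0.07 in MM134, beside -0.94 to -0.51 for the gene. Around RARG it was 0.10 to 0.38 in MM134, while RARG was at -1.22 to -0.32. In SUM44 LTED-B the neighbours of NR3C2 and RARG had medians of 0.28 and 0.25, beside 1.17 and 0.78 for the genes.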

How the data were processed

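Total RNA of 27 samples in 9 groups of 3 was sequenced by the authors (TruSeq Stranded Total RNA, HiSeq 2000). The values are estimated counts per gene that the authors made and deposited, with Salmon 0.6.0 on hg38 with Ensembl release 82. The strand setting is not given in the sources used here. Counts were rounded to whole numbers, and groups were taken from the sample labels. Depth per library and the merged SUM44 LTED-A replicates are given above. With R 4.3.3, edgeR 4.0.16 (filterByExpr, TMM, quasi-likelihood test, two-sided, Benjamini-Hochberg) was fitted to MM134 (26061 genes), SUM44F with the SUM44 variants (26834), all SUM44 groups (27457) and all samples (29608). A call needed a fold above 1.5 and an adjusted p under 0.001, the study's own limits. The scripts were tested on simulated data.

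Receptors and gene lists were chosen with earlier results of these data known. A gene on 2 lists was counted on both. Named from each list were its nuclear receptors and up to 4 genes per line called alike in at least 3 MM134 variants or in both SUM44 variants, those with the largest change in the least changed variant, and, per receptor, the 2 protein-coding genes most alike over the groups. Genes named beyond this rule are marked as picked after their values were seen. Gene models were GENCODE v44 on hg38, which held 56434 of the 60619 gene IDs, and kilobases are of merged exons. Alternatives were DESeq2 1.42.0, RLE scaling, other filters and thresholds, other sets of samples, the replicate number as a block and leaving out each library. Upstream sequences are RefSeq's. Some genes that the rule names are not reported here.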

Additional observations from a re-analysis of the deposited data

Results flagged for a closer look

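In the fit of all samples, p-values rested on the spread between wells and left out the spread between variants of a line. The difference of the LTED change between the lines was called there for 3 receptors, by a direct test (edgeR quasi-likelihood, Benjamini-Hochberg adjusted). For RARA it was -1.69 (log2, MM134 minus SUM44, adjusted p = 1.10e-12), with the 4 MM134 variants at -0.67 to -0.42 and the 2 SUM44 variants at 0.80 and 1.47. For RARG it was -1.0 (adjusted p = 6.30e-11), with MM134 at -1.22 to -0.32 and SUM44 at -0.08 and 0.78. For PPARA it was -0.98 (adjusted p = 1.60e-10), with MM134 at -1.74 to -1.06 and SUM44 at -0.49 and -0.23, so that both lines lay below their parental cells.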

How the results depend on the processing

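Of 3601 recomputed values of 162 receptor differences, some settings covering only part of them, 3411 kept direction and side of the threshold, 50 lost and 72 gained a call and 68 changed sign, 0 of them called in either setting. Scaling by RLE moved the median of all genes by less than 0.1. The sign changed for NR3C2 in MM134 LTED-D (0.0066 with DESeq2, 0.0072 with RLE), RARB between MM134 LTED-B and -D (0.0059 with at least 10 counts per sample), VDR in SUM44 LTED-A (0.0229 with DESeq2 and with RLE, 0.0020 without a filter, 0.0016 with 1 variant in the fit, 0.0148 with SUM44PE in it), RARG between the parental lines (-0.0351 with at least 10 counts) and VDR in the difference between lines (-0.0319 with DESeq2, -0.0314 with RLE, -0.0003 without a filter, -0.0067 with all replicates apart).

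With each library left out in turn, NR3C1 in SUM44 ran from -0.85 to 0.44 (SUM44PE against SUM44F), -0.33 to 1.61 and -1.05 to 0.16 (LTED-A and -B against SUM44F), -0.26 to 1.68 and -0.97 to 0.53 (against SUM44PE) and -0.0109 to 1.94 (LTED-A against -B). RARB ran from -0.27 to 0.0193, -0.27 to 0.0232 and -0.10 to 0.24 in MM134 LTED-B, -D and -E, -0.29 to 0.0388 (A against B), -0.30 to 0.0365 (A against D), -0.067 to 0.0512 (B against D), -0.0217 to 0.15 (SUM44PE against SUM44F) and -0.0009 to 0.17 (SUM44 LTED-A against -B). VDR ran from -0.091 to 0.0856 and -0.15 to 0.0303 in SUM44 LTED-A and -B, -0.0212 to 0.12 between them and -0.073 to 0.091 for the difference between lines. NR3C2 in MM134 LTED-D ran from -0.027 to 0.0353, RARA from -0.0191 to 0.10 (MM134 LTED-B against -D) and -0.13 to 0.0385 (between parental lines), and RARG from -0.082 to 0.0702 (between parental lines) and -0.0034 to 0.11 (SUM44PE against SUM44F).

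Counts of called receptors moved mainly with the thresholds, by construction. With a fold above 2, they went from 11 to 6 in MM134 (rises 3 to 1, falls 8 to 5), 4 to 2 in SUM44 (all rises), 1 to 0 in SUM44PE, 3 to 1 against SUM44PE, 6 to 5 between parental lines, 3 to 2 for the difference between lines, 11 to 2 between MM134 variants (rises 6 to 0, falls 5 to 2) and 1 to 0 between SUM44 variants. With an adjusted p under 0.05 and no minimum fold they were 26 in MM134 (6 rises, 20 falls), 8 in SUM44 (5 rises, 3 falls), 3 in SUM44PE (2 rises, 1 fall), 10 against SUM44PE (7 rises, 3 falls), 5 for the difference between lines (1 rise, 4 falls), 35 between MM134 variants (20 rises, 15 falls) and 4 between SUM44 variants (1 rise, 3 falls). Between SUM44 variants the count was 3 with DESeq2 and without a filter (1 rise, 2 falls), 2 with at least 10 counts (1 rise, 1 fall) and 4 with all replicates apart (1 rise, 3 falls). The cause was not tested. Without each library in turn, counts were 10 to 12 in MM134, 3 to 4 in SUM44, 0 to 1 in SUM44PE, 2 to 3 against SUM44PE, 6 between parental lines, 3 to 4 for the difference between lines, 10 to 11 between MM134 variants and 0 to 2 between SUM44 variants. Steps in the order of groups were 17 with RLE, against 19. RXRA had 0 in place of 1, and PPARA 3 in place of 4.

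Replicate numbers gave no sign of pairing between wells of different groups. Same-numbered wells deviated with correlations of -0.39 to 0.32 in MM134 (median -0.017) and -0.25 to 0.26 in SUM44 (median -0.080). For wells of different number they were -0.45 to 0.44 (median -0.013) and -0.39 to 0.31 (median 0.049). With the replicate block the count between MM134 variants was 10 in place of 11 (PPARG, LTED-A against -D, adjusted p = 0.0017), VDR between SUM44 variants was -0.0039, and no other count changed. NR3C1 in SUM44, at 2 to 24 counts, is limited by depth.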
